A study of Mus musculus with 3 samples.

Results

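The sites described here are predicted N6-methyladenosine (m6A) sites that lie in the 3' UTR 1 to 300 nt after the stop codon, termed near-stop sites. They come from RAW264.7, a mouse macrophage-like cell line grown in culture, and were chosen by position alone. The distance was counted on the spliced transcript with the longest coding sequence (CDS) of 1 protein-coding gene, on the strand of the site, in the GENCODE M21 annotation of the mouse genome build GRCm38. Of the 19301 sites in the list, 4709 were near-stop sites (24.4%, 95% Wilson interval 23.8 to 25.01), and they fell in 2458 genes. They made up 57.6% (56.5 to 58.6) of the 8181 sites in 3' UTRs. The other 3472 sites in 3' UTRs lay more than 300 nt after the stop codon and are termed distal sites. On the coding side of the stop codon, the last 300 nt of the CDS held 2833 sites in 1741 genes.

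The study profiled poly(A)+ RNA by miCLIP2, in which an anti-m6A antibody is crosslinked by UV light to fragmented RNA and the crosslinked nucleotide is read from the ends of the cDNAs. The series holds 1 group, untreated RAW264.7 cells, with 3 biological replicates, and cells lacking the methyltransferase are not analysed here. The authors kept positions found in at least 2 of the replicates, scored those at an A with their machine learning classifier m6Aboost, and deposited 1 list for the cell line. All scores in the list lay between 0.5 and 1. The score states how the classifier voted and is not the fraction of molecules that are methylated. The list holds no read counts, so the depth behind a single site is unknown and no spread between replicates can be given. Intervals below describe the variation among sites, motifs and genes of this 1 list, and those of shares cover counting error only.

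m6A is placed on nascent mRNA by a nuclear complex built around Mettl3 and Mettl14, mostly at an A in the sequence context DRACH (D is A, G or T, R is A or G, H is A, C or T, read here as DNA letters). Long internal exons and last exons are its best known locations, and the region around the stop codon is the classical peak of the mark in mammalian mRNA. Exon junction complexes, which splicing leaves upstream of exon junctions, are known to keep the methyltransferase away from nearby sequence. Cytoplasmic readers of the YTHDF group bind the mark and are best known for speeding up mRNA decay.

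The sequences at the highest scores show what the classifier read at its most certain near-stop sites. One site is given for each of 10 genes, in mRNA sense on GRCm38 with DNA letters, and the pentamer centred on the predicted A is in capitals.
Nrp2 chr1:62815843-62815863 (plus strand, 216 nt after the stop codon): gcccaccaGGACTgtggtggc
Ncl chr1:86350567-86350587 (minus strand, 43 nt after the stop codon): taaagaaaGGACTctggggtt
Cenpa chr5:30674194-30674214 (plus strand, 183 nt after the stop codon): gctcccatGGACTcgagtgtt
Ywhag chr5:135910753-135910773 (minus strand, 232 nt after the stop codon): agacgtccGGACTgttgtgca
Tmem209 chr6:30482894-30482914 (minus strand, 27 nt after the stop codon): aaacatttGGACTttgctttt
Kcnn4 chr7:24384845-24384865 (plus strand, 228 nt after the stop codon): aggtgcatGGACTctggtggt
Calr chr8:84842543-84842563 (minus strand, 94 nt after the stop codon): agactcaaGAACTtttcattt
Ndrg1 chr15:66930744-66930764 (minus strand, 113 nt after the stop codon): gtaagaatGAACTctggcggt
Osbp chr19:11992107-11992127 (plus strand, 75 nt after the stop codon): ggcagttgGGACTcttaccga
Id1 chr2:152737114-152737134 (plus strand, 277 nt after the stop codon): cagccaccGGACTcttggcgg
The first 7 had a score of 1, the highest in the list, and those in Ndrg1, Osbp and Id1 had a score of 0.991, the next highest, which 6 sites shared, with the 3 shown taken by chromosome name and position. Of the 7 sites with a score of 1, 6 were GGACT and 1, in Calr, was GAACT. Of the 6 sites at 0.991, 3 were GGACT and 1, in Ndrg1, was GAACT. The transcripts encode proteins of different kinds. Ncl encodes the nucleolar protein nucleolin, Cenpa the centromeric histone H3 variant, Calr the endoplasmic reticulum chaperone calreticulin, Kcnn4 a calcium-activated potassium channel, Osbp an oxysterol-binding protein and Id1 an inhibitor of helix-loop-helix transcription factors. Nrp2 encodes a co-receptor for semaphorins, and Ywhag a phosphoserine-binding adaptor. Their sites were spread from 27 nt (Tmem209) to 277 nt (Id1) after the stop codon.

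In some transcripts the motif itself reaches into the stop codon. There were 75 near-stop sites whose pentamer took in stop codon bases, 51 at the nucleotide right after the stop codon and 24 at the next, and 73 of them were DRACH. The 5 with the highest scores are shown with the stop codon and the predicted A in capitals, where the 2 kinds of capitals can adjoin.
Lig3 chr11:82801506-82801526 (plus strand, 2 nt after the stop codon): ccctgcTAGgActttggtctt
Gpr89 chr3:96871377-96871397 (minus strand, 1 nt after the stop codon): ggcccccTGAActcagactcc
Lrrc8d chr5:105814296-105814316 (plus strand, 1 nt after the stop codon): cgggattTGAActaagcgaat
Nsmce3 chr7:64872068-64872088 (minus strand, 1 nt after the stop codon): atcctctTGAActctttgagt
Arrb1 chr7:99601200-99601220 (plus strand, 1 nt after the stop codon): caacagaTAGActagggccgg
Lig3 encodes a DNA ligase, Gpr89 a Golgi anion channel that regulates pH, Lrrc8d a subunit of volume-regulated anion channels, Nsmce3 a subunit of the Smc5-Smc6 complex and Arrb1 a beta-arrestin. Their scores ran from 0.927 to 0.962. After a TGA stop codon followed by A, the pentamer was GAACT at 17 of the 27 sites at the first nucleotide. Of the 124 DRACH A at that position after TGA, 26 were in the list (21.0%). Another 51 sites lay at an A of the stop codon itself, 45 of them in TGA, and these are not near-stop sites by the rule used.

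The gene with the most near-stop sites was Jun, a subunit of the AP-1 transcription factor, with 9. Its windows show how closely the sites followed each other and how the pentamer varied within 1 transcript, again with the pentamer in capitals.
Jun chr4:95050254-95050274 (minus strand, 3 nt after the stop codon): cgttttgaGAACAgactgtca
Jun chr4:95050250-95050270 (minus strand, 7 nt after the stop codon): ttgagaacAGACTgtcagggc
Jun chr4:95050207-95050227 (minus strand, 50 nt after the stop codon): aataacagAGACAaacttgag
Jun chr4:95050203-95050223 (minus strand, 54 nt after the stop codon): acagagacAAACTtgagaact
Jun chr4:95050195-95050215 (minus strand, 62 nt after the stop codon): aaacttgaGAACTtgactggt
Jun chr4:95050129-95050149 (minus strand, 128 nt after the stop codon): cacaagatGGACTgggttgcg
Jun chr4:95050025-95050045 (minus strand, 232 nt after the stop codon): tggccggcAGACTttgcggac
Jun chr4:95049983-95050003 (minus strand, 274 nt after the stop codon): agaacgatGGACTtttcgtta
Jun chr4:95049959-95049979 (minus strand, 298 nt after the stop codon): ttgaccaaGAACTgcatggac
The scores in Jun were lowest at 50 nt (0.685) and highest at 274 nt (0.958), and both GGACT sites, at 128 and 274 nt, scored above 0.95. Jun has 13 DRACH A in the 300 nt, and 9 were in the list. The first pair of sites lay 4 nt apart, as did the pair at 50 and 54 nt, so their windows overlap and they do not count as independent.

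The listed share, the percentage of DRACH A in a window that are in the list, sets the sites against the motifs that the annotated transcript offers. It was computed over transcripts with at least 1 listed exonic site, because an unexpressed gene cannot give a site and the list holds no expression values. Distal A were counted up to the annotated 3' end, and the list does not tell which 3' ends the cells use. Among transcripts with a 3' UTR over 300 nt, 15.4% of near-stop DRACH A were listed against 2.65% of distal DRACH A. The difference was 12.7 percentage points (95% interval clustered by gene 12.2 to 13.3, 4050 genes). With distal A limited to the 300 nt that follow the near-stop window, the distal share was 7.32% and the difference 8.05 points (7.41 to 8.69). In the last 300 nt of the CDS the listed share was 8.57%, which was 6.80 points lower than near-stop (6.10 to 7.49). A transcript could enter through its near-stop sites alone, as 768 genes did, which raises the near-stop share. Among the 2402 transcripts with a listed site outside all of these windows, in the 5' UTR or over 300 nt before the stop codon, the shares were 11.7% near-stop, 2.13% distal and 9.02% in the last 300 nt of the CDS. The differences were then 9.54 points from distal (8.81 to 10.3) and 2.65 points from the CDS (1.71 to 3.59). Near-stop and distal positions are given to the classifier as the same region, and the CDS as another. The part of the model inputs (region, sequence, signal strength relative to the gene and C-to-T transitions) in these differences was not tested.

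**Figure D1:**
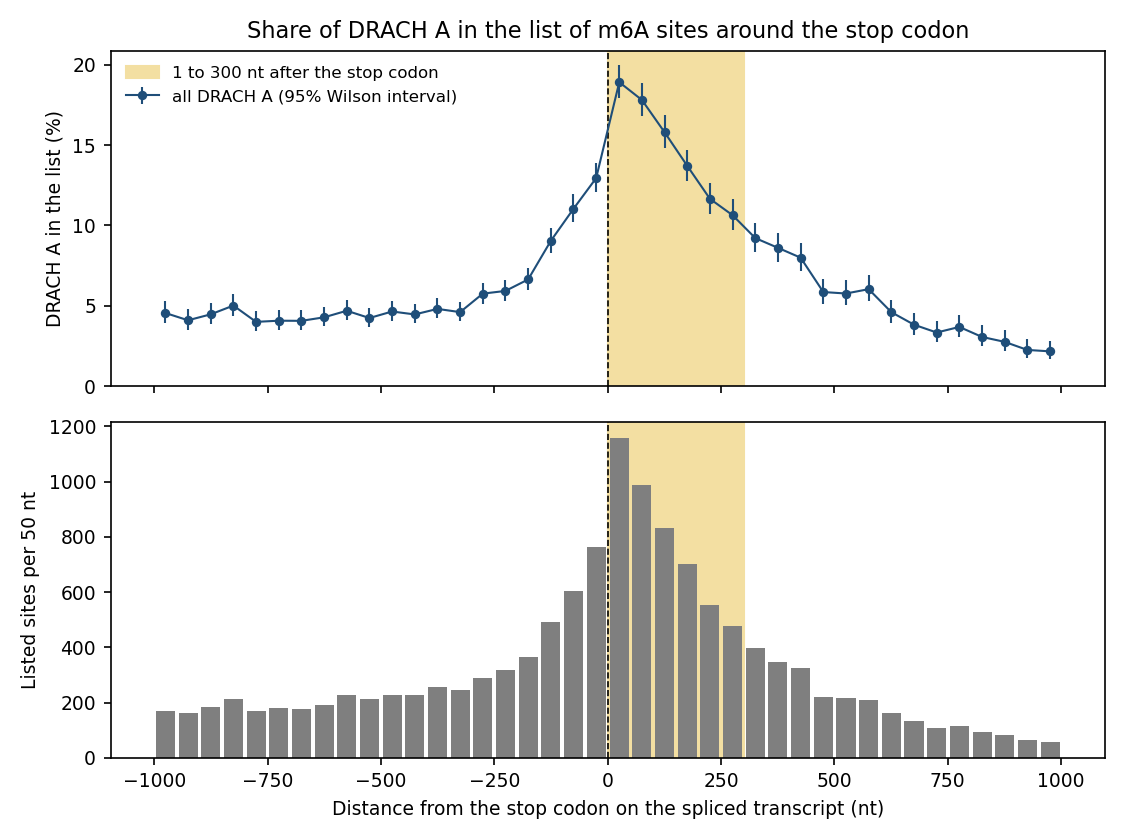
The upper panel plots the percentage of DRACH A in the list per 50 nt against the distance from the stop codon on the spliced transcript, with 95% Wilson intervals as bars, and the lower panel plots the number of listed sites per 50 nt. The share was 18.9% in the first 50 nt of the 3' UTR and 2.16% at 951 to 1000 nt.

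Within the near-stop window the listed share fell with every 50 nt, and where intervals overlapped they were those of neighbouring steps. It was 18.9% (17.9 to 19.95) at 1 to 50 nt, 15.8% (14.8 to 16.9) at 101 to 150 nt and 10.6% (9.71 to 11.6) at 251 to 300 nt. In the next 50 nt, outside the window, it was 9.21% (8.34 to 10.2). Upstream, the last 50 nt of the CDS had 12.9% (12.1 to 13.9), and at more than 300 and up to 1000 nt before the stop codon the share stayed between 3.996% and 5.01%. GGACT alone fell from 54.6% listed at 1 to 50 nt to 28.9% at 251 to 300 nt, and it had 9.74% at 951 to 1000 nt. In steps of 10 nt, the first 100 nt after the stop codon showed no trend beyond the intervals, with shares between 16.7% and 19.6%. At the edge of the rule, the 176 sites at 281 to 300 nt had a median score of 0.813 with 91.5% DRACH, and the 192 sites in the 20 nt beyond it had 0.788 with 85.9%.

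The near-stop sites sat in the last exon in 99.3% of cases. This is close to the background, as only 237 of all 28480 near-stop DRACH A, listed or not, lay outside the last exon. The position of the last exon junction was not used by the rule, and the listed share varied with it. Among near-stop DRACH A in the last exon of spliced transcripts, 8.03% (5.83 to 10.96) were listed in the first 50 nt after the junction and 12.1% (10.3 to 14.2) at 51 to 100 nt. The share then rose to 18.5% (16.8 to 20.3) at 101 to 150 nt and 19.4% (18.02 to 20.8) at 151 to 200 nt. Beyond that it fell again, to 14.4% at over 300 and up to 400 nt and 8.90% (7.76 to 10.2) over 1000 nt. The share at 101 to 200 nt was 8.10 points above that at 1 to 100 nt (6.10 to 10.1), and for GGACT alone the difference was 10.3 points (-0.570 to 21.1, with only 103 GGACT A in the nearer class), whose interval includes 0. A split at 200 nt, which puts the low and the high class together, gave a difference, beyond 200 nt minus up to it, of -2.82 points (-3.95 to -1.69). That difference was -4.22 (-5.31 to -3.13) with a near-stop window of 400 nt and -12.3 (-17.4 to -7.19) at GGACT alone. It was -0.915 (-2.15 to 0.321) when the near-stop window was ended at 200 nt. It turned to 0.105 (-1.34 to 1.55) in the 2402 transcripts with a site upstream of the windows. In the same transcripts the share at 101 to 200 nt was still 6.59 points above that at 1 to 100 nt (4.27 to 8.91).

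Distance to the stop codon and distance to the junction were separated by classing genes on where the stop codon lies in the last exon. Where it lay 101 to 200 nt after the junction, the most common arrangement, the listed share was 21.6% (20.3 to 22.9) in the first 100 nt of the 3' UTR and 15.8% at 101 to 200 nt, a change of -5.80 points (-7.70 to -3.91). Where the stop codon lay at most 50 nt after the junction, the order turned around. There the first 100 nt had 11.3% (9.43 to 13.6) and the next 100 nt 16.8% (14.3 to 19.6), a change of 5.49 points (1.93 to 9.05). The difference between the 2 changes was 11.3 points (7.26 to 15.3, 1985 genes), and in transcripts with a site upstream of the windows it was 11.8 points (6.75 to 16.9, 884 genes). The share at 201 to 300 nt was nearly the same in both classes, 12.3% and 12.2%. Where the stop codon lay over 400 nt from the junction, the first 100 nt had 15.3%, a difference from the class at 101 to 200 nt of -6.25 points (-8.66 to -3.84). In transcripts with a site upstream of the windows that difference was -2.88 points, with an interval that includes 0 (-5.89 to 0.129).

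**Figure D2:**
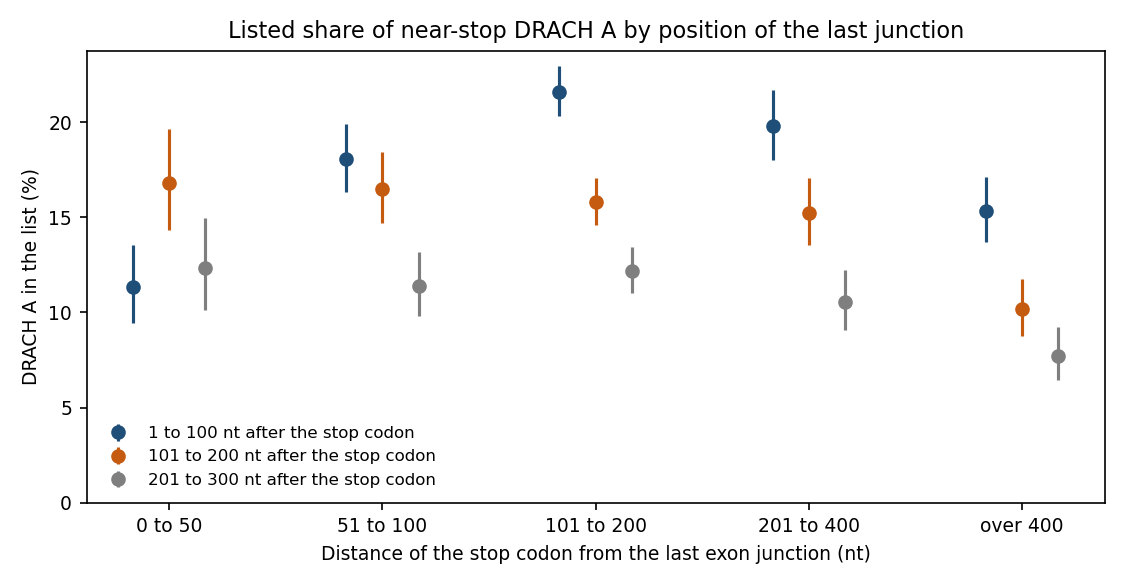
The plot gives the percentage of near-stop DRACH A in the list, with 95% Wilson intervals, for 3 windows after the stop codon, by the distance of the stop codon from the last exon junction. With the stop codon at most 50 nt after the junction, the first 100 nt are lower than the next 100 nt (11.3% against 16.8%), and in the other 4 classes they are the highest of the 3 windows, with overlapping intervals in the class at 51 to 100 nt.

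Genes without introns have no junction at all, and their near-stop sites could be read apart. There were 117 near-stop sites in 51 single-exon genes. Of their near-stop DRACH A, 19.3% were listed against 15.0% in last exons of spliced transcripts, a difference of 4.28 points whose interval includes 0 (-0.766 to 9.32). Single-exon genes with many sites were Jun (9), Eid1 (7), which encodes an inhibitor of differentiation, Ier5 (6), an immediate early gene, H1f0 (5), a linker histone gene, and Thap11 (5), a zinc finger protein gene. Nsmce3 had its first site right after the stop codon and its last at 49 nt, with a highest score of 0.983.

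The listed near-stop A sat in sequence richer in G and C. The bases 11 to 60 nt away on both sides of the A, which lie outside the 10 nt on each side that the classifier reads, had 53.4% G + C around listed near-stop DRACH A and 47.3% around those not listed. The difference was 6.06 points (5.73 to 6.39). At GGACT, which holds the motif constant, it was 4.88 points (4.14 to 5.62). Within genes that had both kinds it was 2.73 points (2.49 to 2.97), and the listed A had the richer flanks in 1549 of 2337 genes (66.3%). None of these differences holds the distance to the stop codon constant, and flanks close to the stop codon reach into the CDS.

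Across classes of base composition the listed share of near-stop DRACH A rose from 2.33% (1.83 to 2.95) below 35% G + C to 16.2% (15.5 to 16.9) at 45 to 55% and 30.9% (27.6 to 34.4) at 65% or more. For GGACT the corresponding shares were 13.8%, 42.3% and 63.0%. The near-stop share was above the distal share in each of the 5 classes, with 0.246% distal below 35% and 10.7% distal at 65% or more. At 45 to 55% G + C the near-stop and distal shares differed by 12.9 points (12.1 to 13.8), and the gap widened from the poorest to the richest class. The shares were 7.36% near-stop and 0.956% distal at 35 to 45%, and 24.3% and 8.03% at 55 to 65%.

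**Figure D3:**
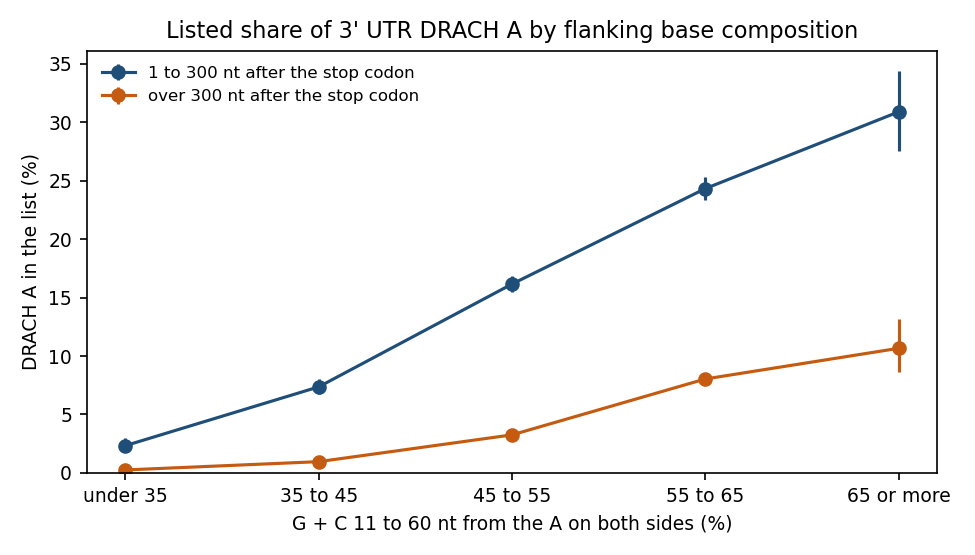
The plot gives the percentage of DRACH A in the list against the G + C content 11 to 60 nt from the A, with 95% Wilson intervals, for near-stop (1 to 300 nt) and distal (over 300 nt) positions in the 3' UTR. Both rise across the 5 classes, near-stop from 2.33% to 30.9% and distal from 0.246% to 10.7%.

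The kind of stop codon and the length of the 3' UTR also went with differences in the listed share, whose intervals included 0 within 1 class of base composition. Near-stop DRACH A were listed in 15.6% of cases after TGA and after TAG, and in 13.03% after TAA, with a difference between TGA and TAA of 2.60 points (1.33 to 3.87). Flanks after TAA averaged 44.9% G + C, against 49.2% after TAG and 49.1% after TGA. Among A with 45 to 55% G + C the difference was 0.226 points (-1.82 to 2.27). Below 45% the shares were 5.74% after TGA and 5.92% after TAA, and at 55% or more they were 24.5% and 26.7%. At GGACT the difference turned to -1.30 (-7.27 to 4.67). In 3' UTRs over 1000 nt, 14.7% of near-stop DRACH A were listed against 12.2% in those of at most 300 nt, a difference of 2.51 points (0.993 to 4.04), while those of over 300 and up to 1000 nt had 16.4%. With 45 to 55% G + C this difference was 0.266 points (-2.35 to 2.88, an interval that also holds the 2.51 points), at GGACT it was 1.52 (-6.18 to 9.21), and with a window of 400 nt it was 1.003 (-0.480 to 2.49). In transcripts with a site upstream of the windows, the difference by length was 2.56 points (0.522 to 4.59). There TGA minus TAA was 2.98 points (1.34 to 4.62).

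The shares of DRACH and of GGACT differed between near-stop and distal sites by amounts whose intervals included 0. DRACH held 91.2% (90.3 to 91.9) of near-stop and 91.0% of distal sites, a difference of 0.181 points (-1.09 to 1.45). GGACT held 18.8% and 19.2%, a difference of -0.425 points (-2.23 to 1.38). GGACT was the most frequent pentamer with 886 sites, followed by AGACT with 642, GGACA with 581, GAACT with 564 and TGACT with 364. Some of the others had unequal shares, which were not tested: GAACT held 11.98% of near-stop and 13.8% of distal sites, and for TGACT the shares were 7.73% and 8.84%. The pentamer GGACC held 6.52% and 5.39%. A C followed the A at 97.2% of near-stop sites. Of the 416 sites at non-DRACH pentamers, 65 were GGACG, 60 GTACT and 41 GGATT, and the median score of the 416 was 0.624 against 0.807 at DRACH.

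Each DRACH pentamer except TAACC had a higher listed share near the stop codon than further downstream. Of near-stop GGACT, 44.1% (41.9 to 46.3) were listed against 11.7% (10.9 to 12.6) of the same motif at distal positions. For GAACT the near-stop share was 33.0% and the distal share 7.08%. At AGACT these shares stood at 32.3% and 5.80%, and with GGACA at 27.1% and 6.31%. The motif TGACT was listed at 19.4% of its near-stop and 3.89% of its distal occurrences. AAACT showed a near-stop share of 13.3% against 1.67%. At the low end, 1.36% of 1548 near-stop TGACC were listed. TAACC had 0 of 715, which allows a share of up to 0.420% (3 counts of the total, with the Wilson interval ending at 0.534%), against 3 of 3897 at distal positions (0.0770%).

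The scores of near-stop sites had a median of 0.794, with quartiles at 0.684 and 0.871. Their mean exceeded that of distal sites by 0.0117 (0.00619 to 0.0172), small against a standard deviation of 0.121 among near-stop sites, and by 0.0196 (0.00994 to 0.0292) among GGACT sites. Among sites with a score of at least 0.7 these differences were 0.00146 (-0.00245 to 0.00536) and 0.00761 (0.000259 to 0.0150). Against the last 300 nt of the CDS the mean score was 0.0666 higher (0.0609 to 0.0723), or 0.0340 higher (0.0298 to 0.0381) at scores of at least 0.7, with the region a model input. Scores of at least 0.9 were given to 720 near-stop sites (15.3%, 14.3 to 16.4), to 13.8% of distal sites and to 4.17% of sites in the last 300 nt of the CDS. Along the near-stop window the median score per 50 nt stayed between 0.783 and 0.800, although the listed share fell.

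**Figure D4:**
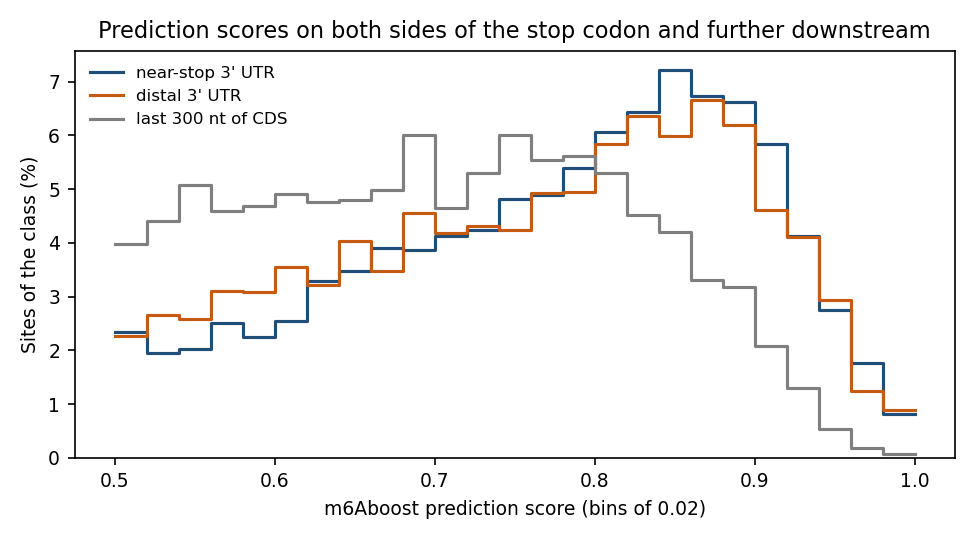
The plot gives the percentage of sites per score bin of 0.02 for near-stop sites, distal 3' UTR sites and sites in the last 300 nt of the CDS. The near-stop and distal curves lie close together (medians 0.794 and 0.780), and the CDS curve lies to the left (median 0.708).

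More than 1 near-stop site per gene was common. Of the 2458 genes, 1122 had 1 such site, 767 had 2, 341 had 3, 144 had 4 and 84 had 5 or more. The median gap between neighbouring sites of a gene was 43 nt (quartiles 19 and 87), 48.0% of sites had another within 50 nt, and 4.54% had another within 5 nt. Among transcripts with a listed site, the share with at least 1 listed near-stop DRACH A was 18.5% with 1 or 2 DRACH A on offer and 71.7% with 11 or more. More DRACH A give more chances of at least 1, and the listed share per A was 11.9% in the first class and 14.3% in the last. In 768 genes (31.2%) the near-stop sites were the only exonic sites. In 837 genes the last 300 nt of the CDS had a site too, and in 837 genes the distal 3' UTR had one, with 312 genes having both.

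Behind Jun, genes with many near-stop sites were Rhof with 8, and Rps19bp1, Slc35e1, Ctsz, Eid1 and Dnajb12 with 7 each. Gemin7 and Atg13 followed with 6. Rhof encodes a small GTPase of filopodia, and its sites ran from 9 to 282 nt with scores between 0.743 and 0.948. Slc35e1, of a family of nucleotide-sugar transporters, had 7 of its 8 near-stop DRACH A listed. Eid1 also had 7 of 8. Dnajb12 encodes a co-chaperone of the endoplasmic reticulum membrane, and 3 of its 7 sites, at 135, 139 and 143 nt, lay in a tandem repeat of GACA with scores of 0.831, 0.579 and 0.628. Gemin7, a subunit of the SMN complex that assembles spliceosomal particles, had the highest mean score of these 9 genes (0.871), and its first site took in bases of its TAA stop codon. Atg13, a subunit of the kinase complex that starts autophagy, had no site before 148 nt and its highest score, 0.968, at 249 nt.

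**Figure D5:**
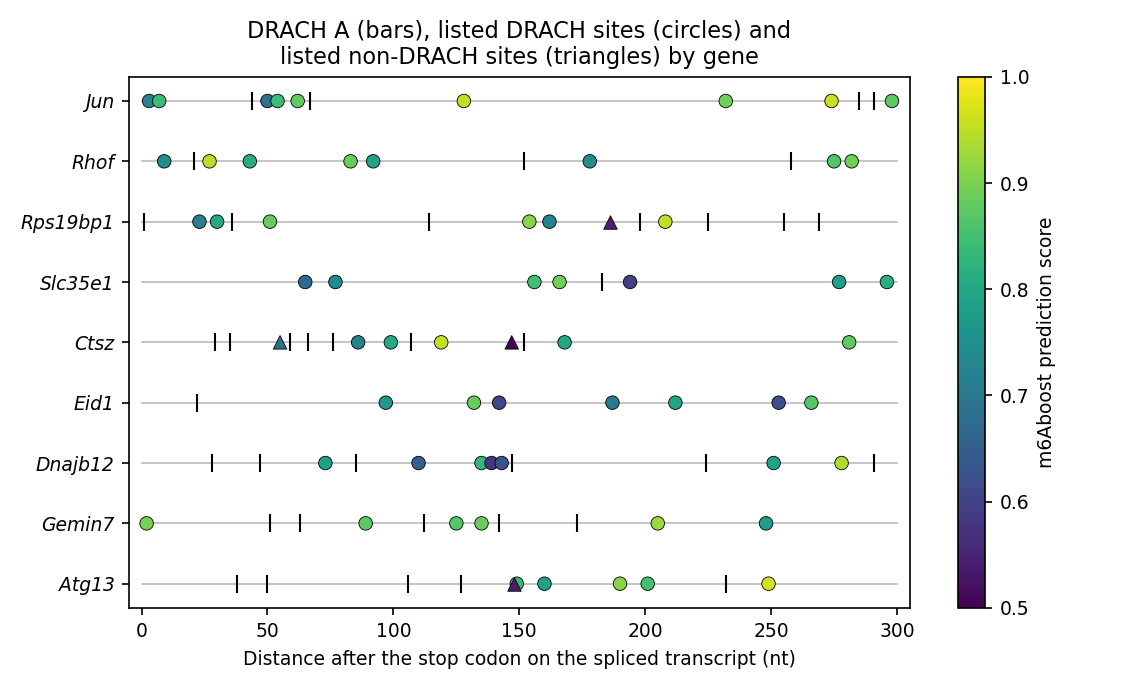
Each row is the first 300 nt of the 3' UTR of 1 of 9 genes among those with the most near-stop sites, with distance after the stop codon on the horizontal axis. Circles are listed DRACH sites and triangles listed non-DRACH sites, coloured by score, and bars are DRACH A not in the list. Jun has 9 listed sites along the window, and Atg13 has none before 148 nt.

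Gene groups were described against the background of all 4771 genes with an exonic site, of which 51.5% had a near-stop site, with 15.1% of near-stop DRACH A listed. The groups were chosen with earlier results of these data known and carry no test. Their intervals count each DRACH A as independent, although A of the same gene share their source, so they may be too narrow to rank the groups. Of 13 immediate early genes with an exonic site, 11 had a near-stop site and 34.8% (25.7 to 45.2) of their DRACH A were listed. Jun alone held 9 of the 31 listed. Besides Jun, Ier5 had 6 sites with scores from 0.505 to 0.895 and Ier2 had 3 with scores from 0.875 to 0.950. Of 13 genes of macrophage lineage and surface, 10 had a near-stop site, with 27.4% (18.99 to 37.8) listed. Spi1, the transcription factor PU.1, is shown because the pentamers of all 5 of its sites begin with GGAC.
Spi1 chr2:91115452-91115472 (plus strand, 68 nt after the stop codon): cccggcccGGACAcagggagg
Spi1 chr2:91115463-91115483 (plus strand, 79 nt after the stop codon): cacagggaGGACAttcccagg
Spi1 chr2:91115485-91115505 (plus strand, 101 nt after the stop codon): ccgaggcaGGACTgggggccc
Spi1 chr2:91115553-91115573 (plus strand, 169 nt after the stop codon): tcccaccaGGACTctagcccg
Spi1 chr2:91115588-91115608 (plus strand, 204 nt after the stop codon): tgggcctcGGACCtcaaccga
Its scores were 0.784, 0.866, 0.845, 0.921 and 0.882 in this order. Cebpb, a transcription factor of myeloid cells and inflammation, had 3 sites, at 89, 194 and 242 nt, of which the middle one scored highest (0.913). Of 10 macrophage markers, Csf1r, Cd14, Spi1, Fcgr1, Lyz2 and Irf8 had an exonic site and each of these 6 had a near-stop site, while Itgam, Adgre1, Cd68 and Mertk had none. A listed site is no measure of expression, so the cell type could not be checked from the list.

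For signalling and lysosomal genes the interval of the listed share included the 15.1% over all genes. Of 23 genes of Toll-like receptor and NF-kB signalling, 15 had a near-stop site and 18.2% (12.9 to 25.02) of DRACH A were listed. Traf3, an adaptor ubiquitin ligase, Tab1, a partner of the kinase Tak1, and Irak1, a receptor-associated kinase, had 4 sites each. Of 13 feedback inhibitors of cytokine and MAPK signalling, 7 had one, with 19.7% (12.1 to 30.4) listed. Among them, Zfp36l2, which promotes decay of mRNAs with AU-rich elements, and Socs3, which damps cytokine receptors, had 3 each, and Dusp4, a MAPK phosphatase, had 2. Of 19 lysosomal genes, 13 had a near-stop site and 17.7% (11.8 to 25.8) were listed. Ctsz, the cathepsin Z gene, had 7, Grn, the progranulin gene, 4 and Gusb, the beta-glucuronidase gene, 3, with a mean score of 0.921.

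The listed share lay below 15.1% in the remaining groups, the m6A genes among them. For the interferon, histone methylation and respiratory chain genes the interval of counting error included 15.1%. Of 21 interferon and antiviral genes, 9 had a near-stop site and 10.7% (6.39 to 17.5) of DRACH A were listed, led by Ifngr2 with 3 sites, Ifnar2 with 2 and Tmem173 with 2, which encode receptor subunits for interferons and the adaptor STING. Of 26 genes of histone methylation enzymes, 12 had one, with 10.5% (6.66 to 16.2) listed and Kdm3b (3), Kdm4a (2) and Setdb1 (2) in front. Of 76 Zfp zinc finger genes, 23 had one, with 8.74% (6.43 to 11.8) listed. Zfp652, Zfp282 and Zfp787 had the most. Of 19 genes for subunits of the mitochondrial respiratory chain, 6 had one and 11.5% (6.19 to 20.5) were listed, with 2 sites each in Ndufa2, Ndufa10 and Uqcr10. Of 24 genes grouped as cytosolic ribosomal proteins, 4 had one, among them Rpl41, Rpl39 and the L7-like gene Rpl7l1, and 5.06% (1.99 to 12.3) were listed. Expression is not in the list, so a gene that lacks a site cannot be told apart from one with too little mRNA to give one.

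The genes of the m6A machinery were few. Of 7 writer and eraser genes with an exonic site, 1 had a near-stop site, against 51.5% of all genes, and 2.50% (0.443 to 12.9) of their DRACH A were listed. It was Alkbh5, which encodes a demethylase, at 20 nt with a score of 0.656. Of 6 reader genes, 1 had one, Ythdf2, a cytoplasmic reader that recruits decay factors, at 80 nt with 0.765, and 2.44% (0.432 to 12.6) of DRACH A were listed. Both sites were GGACT. Mettl3 had no exonic site in the list.

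Among the other mouse genes that the study names, Nip7 and Phb2 had 3 near-stop sites each, and their windows are given as examples of a GGACT site with weaker neighbours.
Nip7 chr8:107058503-107058523 (plus strand, 17 nt after the stop codon): cattccaaGAACAttttgctg
Nip7 chr8:107058523-107058543 (plus strand, 37 nt after the stop codon): gtgtgagaGGACTtagctttg
Nip7 chr8:107058566-107058586 (plus strand, 80 nt after the stop codon): ttaaatctGGACAacactgag
Phb2 chr6:124716735-124716755 (plus strand, 112 nt after the stop codon): catgtgatGGACTtttctgta
Phb2 chr6:124716769-124716789 (plus strand, 146 nt after the stop codon): attaaggaAGACTgagaccag
Phb2 chr6:124716830-124716850 (plus strand, 207 nt after the stop codon): gcggggtgGGACAatgtgatt
Nip7, a ribosome biogenesis factor, scored 0.779, 0.929 and 0.825 at these positions. Phb2, a prohibitin of the mitochondrial inner membrane, scored 0.941, 0.752 and 0.714. In both, the GGACT site had the highest score. Oat, which encodes the mitochondrial enzyme ornithine aminotransferase and was added after its values were seen, had 5 near-stop sites and no other exonic site. They lay at 8, 9, 46, 190 and 201 nt, with the highest score, 0.957, at 9 nt and the lowest, 0.529, at the adjoining position. Eif4ebp1, a repressor of cap-dependent translation, had its 2 exonic sites at 91 and 221 nt, with scores of 0.752 and 0.876. Zfp710, a zinc finger protein, had sites at 45 and 158 nt, and Mif4gd, a translation factor for histone mRNAs, had 1 at 85 nt. Trim27, Ccnt2 and Ythdc1 had exonic sites but none near the stop codon, and Palm3, Hic2 and Nanog had no exonic site.

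Of the 10 main differences between classes of sites or motifs, 8 had a 95% interval that did not include 0, and the same number did so at a level adjusted for 10 comparisons (Bonferroni). A further 15 differences, on junction classes, single-exon genes and G + C, were added after values had been seen, and they carry no adjustment. A few placements depend on annotation. There were 34 near-stop sites (0.722%) that also lay in a CDS of another transcript. Another 261 sites of the list fell in exons of more than 1 gene and were left out, 81 of which would have been near-stop in at least 1.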

How the data were processed

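Reads of 3 miCLIP2 replicates were mapped by the authors to GRCm38 with STAR 2.7.3a, and the submitters' processing notes also name SAMtools 1.9, UMI-tools 1.0.0 and bedtools 2.27.1. PureCLIP positions found in at least 2 replicates were classified with m6Aboost. The authors deposited 1 pooled list whose value is the prediction score of each site, with no counts. The series text calls the line human, whereas the organism label and the study name mouse, and every listed position is an A on its strand of GRCm38. Genes came from GENCODE M21, whereas the study used another release of the same build. Distances, motifs and G + C were read from genome and annotation with Python 3.11.15 and NumPy 2.4.6. Differences were fitted by linear models with standard errors clustered by gene, with no p-values because the list has no replicate values, and the fit was tested on simulated data. The members and gene lists were chosen with earlier results of these data known. Genes were named by most near-stop sites, highest scores, mention in the study, membership of 12 lists and motifs that reach the stop codon, and 1 such gene is not reported here. Alternatives covered score, window, transcript, motif and neighbouring sites.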

Additional observations from a re-analysis of the deposited data

How the results depend on the processing

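No paired analysis was possible because replicates are merged in the 1 deposited list, so leaving out a replicate was not possible either. Of 82 alternative values of the differences, 67 kept their direction and whether the interval includes 0. Of 7 of the number of sites, 6 stayed within 1.5 times. The cause of the other changes was not tested. A minimum score of 0.9 left 720 near-stop sites, and one of 0.7 left a score difference from distal sites of 0.00146. The DRACH share difference, whose interval includes 0, turned to -0.443 (score of at least 0.7), -0.0803 (sites within 5 nt collapsed), -0.100 (window of 400 nt) and -0.0449 (distal sites up to 600 nt only). The GGACT share difference turned to 0.494 (transcript with the longest genomic span), 1.045 (window of 200 nt) and 0.305 (distal sites up to 600 nt only). The junction split gave -0.915 with a window of 200 nt and 0.105 in transcripts with a listed site upstream of all windows, where the difference from the CDS fell to 2.65. At GGACT alone the junction split was -12.3, and the listed share differences were 32.6 points from distal and 15.9 from the CDS. Over every A in place of DRACH A, a far larger denominator, the 5 listed share differences kept their direction at -0.559 to 1.26 points. The difference by 3' UTR length was 1.003 with a window of 400 nt, 1.52 at GGACT and 0.266 at 45 to 55% G + C. TGA minus TAA was -1.30 at GGACT and 0.226 at 45 to 55% G + C, and this class and the upstream rule were chosen after seeing the data. Depth per site is not in the list, so an A that is not listed may be unmethylated or too thinly covered. In a 3' UTR it may also lie beyond the 3' end that the cells use.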
